A study of Mus musculus with 6 samples.

Results

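Complex I, or NADH:ubiquinone oxidoreductase, is the first enzyme of the mitochondrial respiratory chain, and its nuclear genes carry symbols that begin with Nduf. The genes described here were every protein-coding row of the count table whose GRCm38 symbol begins with Nduf, which gave 46 genes out of 49315 rows. Of these, 36 encode subunits of complex I, 8 encode the assembly factors Ndufaf1 to Ndufaf8, and 2 (Ndufa4 and Ndufa4l2) carry an Nduf name but are counted with cytochrome c oxidase. The rule uses names and not counts, although this gene family was picked with earlier results of these data known.

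The libraries came from TKO, a mouse ovarian cancer cell line whose name stands for triple knockout. The knockout (KO) group was 3 libraries of TKO cells without MNRR1, the product of Chchd2, all from 1 clone, and the wild-type (WT) group was 3 libraries of TKO cells with MNRR1 intact. Both groups therefore share the changes that define the TKO line, which the labels do not name. A difference between the groups may belong to the clone or to the loss of MNRR1, and these cannot be told apart. The labels do not say whether replicates were separate cultures, and the p-values thus cover only the spread between these libraries, which may be technical.

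Complex I takes electrons from NADH and passes them to ubiquinone while pumping protons across the inner membrane. Its matrix arm holds the N module, where NADH is oxidised, and the Q module, where ubiquinone is reduced. Its membrane arm has a proximal and a distal part built around subunits encoded by mitochondrial DNA. Assembly factors join the modules and leave before the enzyme is complete, so they are not part of the finished complex. MNRR1 is known as a partner of cytochrome c oxidase in mitochondria and as a regulator of transcription in the nucleus.

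Library totals were 33226463 to 40983999 counts. Levels are CPM, the counts of a gene per 1000000 counts of its library, with library sizes corrected by TMM (trimmed mean of M values). The threshold for calling a gene was an adjusted p under 0.05 in edgeR's quasi-likelihood test with Benjamini-Hochberg adjustment over all 16033 genes that passed the filter on low counts. Chchd2, the targeted gene, had 581, 717 and 658 counts in the KO libraries and 12835, 11824 and 13506 in the WT libraries, which went with the labels in all 6. The 10 epithelial and Mullerian markers summed to 2251 to 2381 CPM in KO against 2776 to 2931 CPM in WT libraries. Of these, Krt8 (283 against 480 CPM), Krt18 (275 against 402), Krt7 (81.3 against 299) and Msln (108 against 281) fell in KO cells, and Krt19 (481 against 354) and Muc16 (414 against 301) rose. Wt1 was at 677 against 719 CPM, Epcam at 2.43 against 2.28 CPM and Cdh1 at 0.475 against 0.581 CPM, none of them called. Pax8 was at a mean of 0.0259 CPM in KO against 0.313 CPM in WT libraries, too low to test. The leukocyte markers summed to 2.97 to 3.43 CPM in KO against 4.51 to 10.7 CPM in WT libraries, with 1 of 6 (Cd3e) at 0 in every library. The endothelial markers summed to 1.55 to 1.65 CPM in KO against 5.49 to 5.99 CPM in WT libraries, with 1 of 5 (Tie1) at 0 in every library. Kdr made up most of that sum, at a mean of 1.13 CPM in KO against 5.35 CPM in WT libraries. Pecam1 was at 0.367 and 0.301 CPM and was not called, and Cdh5 (0.0368 and 0.0530 CPM) and Vwf (0.0693 and 0.0365 CPM) were too low to test. The fibroblast markers summed to 457 to 495 CPM in KO against 616 to 656 CPM in WT libraries. Col1a1 made up most of that gap, at a mean of 10.3 against 134 CPM, and was the only fibroblast marker called. Dcn, lower in KO cells (465 against 496 CPM), and Pdgfra, higher (6.59 against 5.93), were not called. Lum was also higher, at 0.264 against 0.0885, but too low to test. The granulosa markers summed to 0.541 to 0.860 and 0.561 to 1.44 CPM, with 2 of 4 at 0 in every library. The part of these markers in the results was not tested, and in bulk RNA fewer cells of a type cannot be told apart from less RNA per cell.

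Most complex I subunit transcripts differed little between KO and WT cells, while assembly factor transcripts had a larger median size of change. The largest falls were those of assembly factors, and the largest rise was that of a subunit, Ndufv3. Of the 36 subunit genes, all of which were tested, 5 rose and 4 fell in KO cells, so 25.0% were called. Of all genes tested, 55.7% were called, 27.8% higher and 27.8% lower. Of the 8 assembly factor genes, 2 rose and 3 fell (62.5% called). Ndufa4 was tested and not called, and Ndufa4l2 was the only member below the filter.

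The median log2 change of KO over WT was 0.03 for the subunits, -0.17 for the assembly factors and 0.01 for all genes tested. With the sign dropped, the median size was 0.10 on the log2 scale for the subunits, 0.35 for the assembly factors and 0.35 for all genes tested. Only 1 of 36 subunits reached a 1.5-fold change (2.78%), against 2 of 8 assembly factors (25.0%) and 31.1% of all genes tested. Among the 8787 tested genes whose mean CPM lay within the range of the subunits, 23.9% reached it and the median size was 0.30. Subunit levels were also measured with less error than most, with a median standard error of 0.06 on the log2 scale against 0.11 for the assembly factors and 0.10 for all genes tested.

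**Figure D1:**
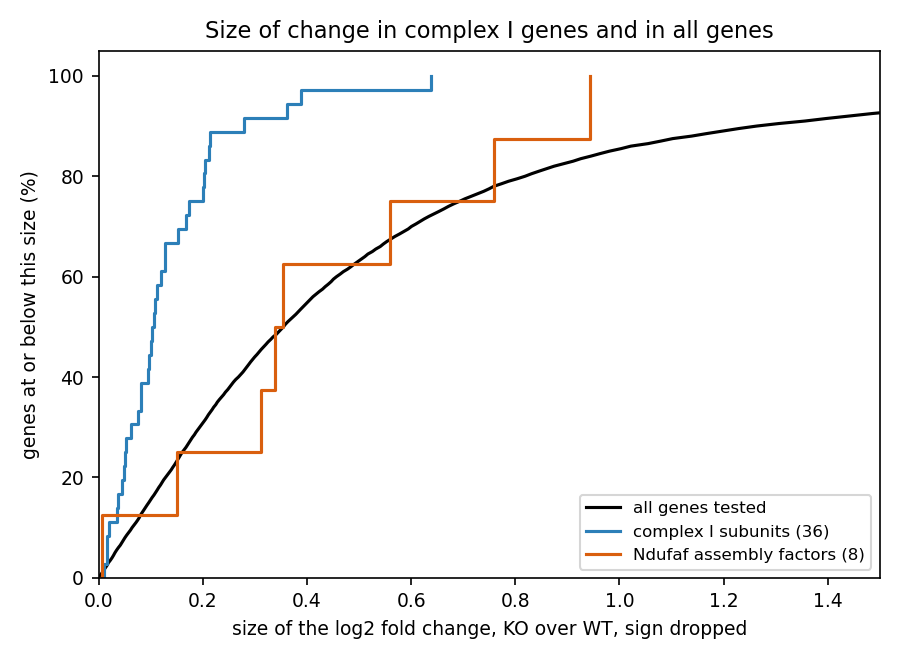
Cumulative share of genes (vertical axis, in percent) at or below each size of log2 fold change between KO and WT (horizontal axis, sign dropped), for the 36 complex I subunits, the 8 Ndufaf assembly factors and all genes tested; the axis ends at 1.5. The subunit curve rises steeply, with a median of 0.10, whereas the assembly factor curve runs close to that of all genes, with medians of 0.35 for each.

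Several subunit calls changed with the scaling of the libraries. When libraries were scaled by their totals, the all-gene median log2 change moved from 0.01 to 0.13 and that of the subunits from 0.03 to 0.15, with 14 subunits called higher and 2 lower. Scaling by upper quartiles gave 9 higher and 3 lower. Without KO replicate 2 there were 7 higher and 7 lower, and without WT replicate 1 there were 4 higher and 2 lower.

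In the matrix arm, 3 of 16 subunit genes rose and 1 fell. Ndufv3 (GRCm38 chr17:31520115-31531331, plus strand), an accessory subunit of the NADH-oxidising N module beside the flavin site, showed the largest change of any subunit. It stood at 48.1, 46.9 and 52.2 CPM in KO replicates 1 to 3 and at 33.5, 30.3 and 30.7 CPM in WT replicates 1 to 3. Every KO library lay above every WT library, and the log2 change was 0.64 (SE 0.07, adjusted p = 2.32e-05). Ndufs6, a zinc-binding subunit of the same module, went the other way. Its values were 24.4, 28.0 and 23.9 CPM in KO against 33.8, 31.9 and 32.5 CPM in WT libraries, without overlap, and it fell by 0.36 on the log2 scale (SE 0.08, adjusted p = 0.00192).

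The remaining N module genes were not called. The core subunits Ndufv1 and Ndufs1, which carry the flavin and most of the iron-sulphur clusters of this module, were at log2 changes of 0.11 and 0.05. The core subunit Ndufv2 was at -0.10. The accessory subunits Ndufa2, Ndufs4 and Ndufa12 were at 0.17, 0.08 and -0.13. Ndufa12 and Ndufv2 lay lower in every KO library than in every WT library although they missed the threshold (adjusted p = 0.0741 and 0.128).

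In the Q module, no gene fell. Ndufa7, an accessory subunit at the border of the Q and N modules, was at 41.3, 42.6 and 43.7 CPM in KO against 32.6, 31.6 and 33.3 CPM in WT libraries. The libraries of the genotypes were well apart, and the log2 change was 0.39 (SE 0.06, adjusted p = 2.53e-04). The core subunits Ndufs7 and Ndufs8, which carry the path of electrons towards ubiquinone, were at 0.02 and 0.09, and the core subunit Ndufs3 was at -0.03. The accessory subunits Ndufa5, Ndufa6 and Ndufa9 were at -0.04, 0.13 and 0.10. None of these passed the test.

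Ndufab1, the mitochondrial acyl carrier protein, sits in complex I and also serves lipoic acid synthesis and iron-sulphur cluster formation. It was at 69.9, 75.9 and 72.7 CPM in KO against 85.0, 83.1 and 77.4 CPM in WT libraries. The gene fell by 0.17 on a log2 scale (adjusted p = 0.0299), and the call did not survive scaling by library totals (adjusted p = 0.471) or by upper quartiles (0.0976), nor the omission of KO replicate 1 (0.135), WT replicate 1 (0.128) or WT replicate 2 (0.101), in a range of 0.00339 to 0.471.

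In the membrane arm, 2 of 19 genes rose and 2 fell, and no change reached 0.30 on the log2 scale. In the proximal part, Ndufa8 was at 90.7, 97.8 and 88.8 CPM in KO against 110, 107 and 102 CPM in WT libraries. The values did not overlap, and the gene fell by 0.20 (SE 0.06, adjusted p = 0.00986), a call that was lost with library totals (adjusted p = 0.168) or without WT replicate 1 (0.0543), in a range of 2.20e-04 to 0.168. Ndufc2 rose by 0.15 (adjusted p = 0.0410), from 66.0 ± 2.11 to 73.3 ± 3.32 CPM (SD, n = 3 each). That call was lost in 9 of 16 alternatives, among them the omission of every library except KO replicate 3, and its adjusted p ranged from 0.00163 to 0.170. The other proximal genes were at -0.11 (Ndufa10), -0.05 (Ndufa11), -0.02 (Ndufa3), 0.05 (Ndufs5), 0.06 (Ndufc1), 0.08 (Ndufa1) and 0.20 (Ndufa13), and were not called.

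In the distal part, Ndufb8 and Ndufb10 changed in opposite directions. Ndufb8 was at 90.9, 91.8 and 92.3 CPM in KO against 80.0, 77.4 and 79.9 CPM in WT libraries. Its replicates were close together, and it rose by 0.21 (SE 0.05, adjusted p = 0.00351). Ndufb10 was at 52.5, 57.8 and 55.5 CPM in KO against 67.4, 68.3 and 65.5 CPM in WT libraries. It fell by 0.28 (SE 0.06, adjusted p = 0.00168) without overlap. The other 8 Ndufb genes were not called and lay between -0.20 (Ndufb2) and 0.12 (Ndufb7). Ndufa8 and Ndufb10 belong, with Ndufb7 and Ndufs5, to the complex I subunits that share the paired-cysteine CHCH fold of MNRR1 itself. This grouping was made after the values were seen, and Ndufb7 and Ndufs5, at 0.12 and 0.05, were not called.

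**Figure D2:**
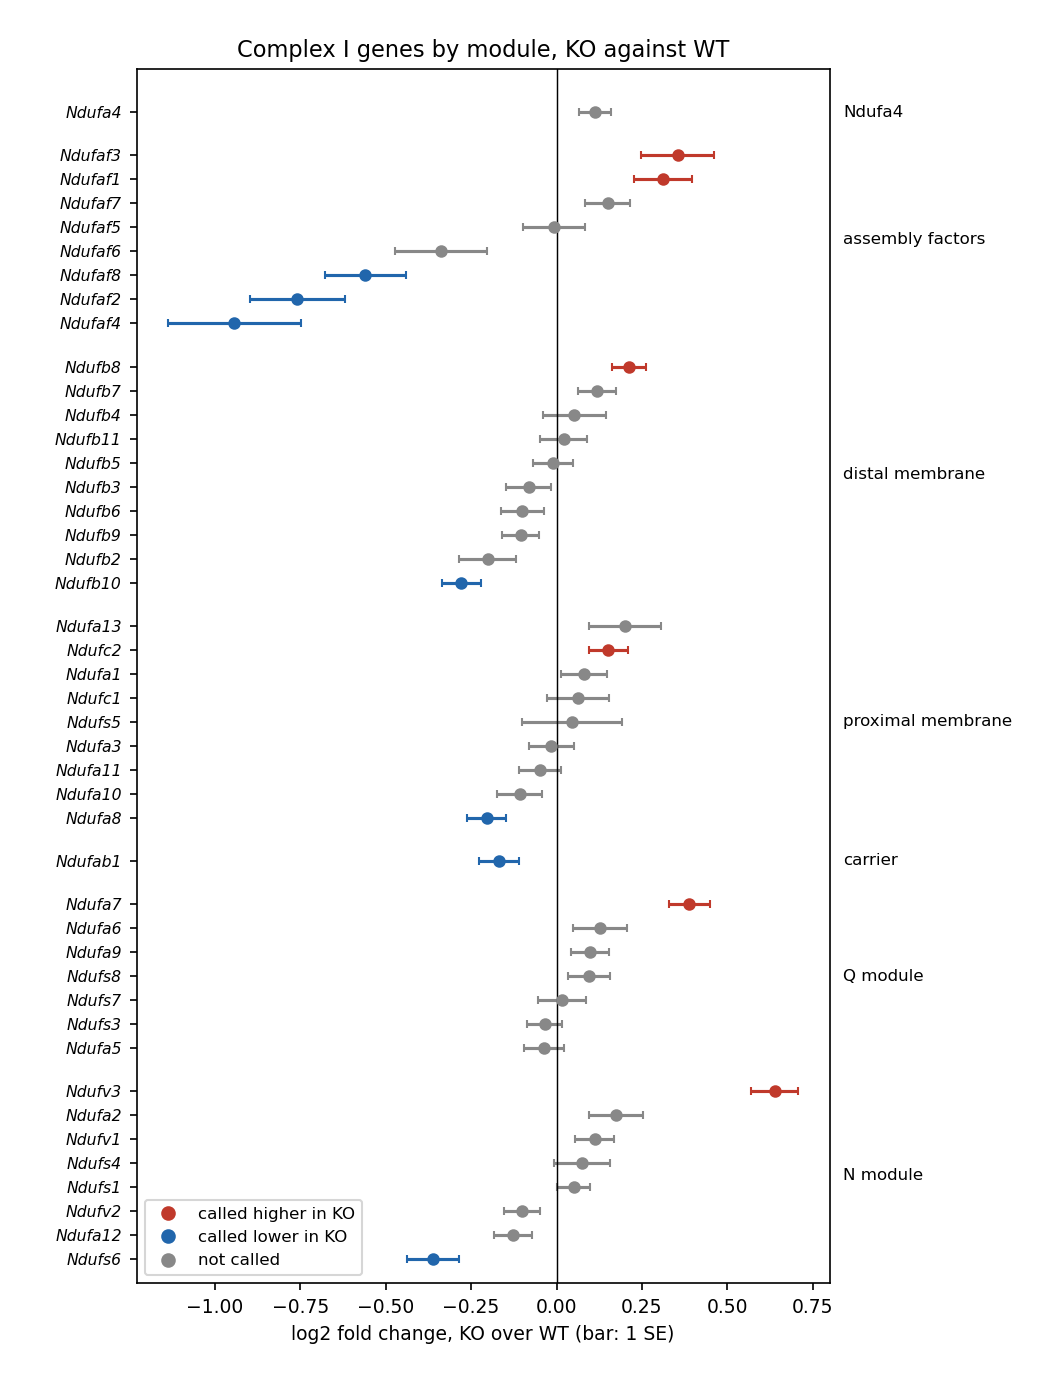
Log2 fold change of KO over WT (horizontal axis; bars are 1 standard error) for 44 of the 45 members tested, grouped by part of complex I, with called genes in red (higher) or blue (lower) and others in grey. Most subunits lie within 0.2 of zero, Ndufv3 stands out at 0.64, and the assembly factors run from -0.94 to 0.35.

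Over all 27 subunits that were not called, log2 changes ran from -0.20 to 0.20 and adjusted p from 0.0598 to 0.889, with 3 at an unadjusted p under 0.05. KO libraries lay wholly above WT libraries for 6 subunits and wholly below them for 9, or 41.7% of the subunits, against 64.0% of all genes tested. For the assembly factors this held for 3 higher and 4 lower genes, or 87.5%. Per kilobase of exon, WT levels of the subunits ran from 3.42 (Ndufb2) to 124 (Ndufa8) CPM per kilobase, with a median of 34.9, and those of the assembly factors from 4.43 (Ndufaf6) to 18.3 (Ndufaf4), with a median of 7.94. These lengths count every annotated exon of a gene and so understate the level of genes with rarely used exons.

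The assembly factors held the largest falls among the Nduf genes. Ndufaf4 (chr4:24898083-24905001, plus strand), which works with Ndufaf3 on the Q module, was the most abundant of the 8 in both CPM and CPM per kilobase in WT cells. It stood at 74.2, 71.3 and 69.1 CPM in WT replicates 1 to 3 and at 34.5, 49.7 and 27.3 CPM in KO replicates 1 to 3. All KO libraries were lower, but KO replicate 2 lay well above the other KO libraries. The log2 change was -0.94 (SE 0.19, adjusted p = 0.00474), moved to -1.21 without KO replicate 2, and missed the threshold with no filter on low counts (adjusted p = 0.0617, in a range of 4.31e-08 to 0.0617).

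Ndufaf3, the partner of Ndufaf4, went the other way. It was at 10.8, 9.43 and 11.4 CPM in KO against 7.89, 8.62 and 8.24 CPM in WT libraries. Its log2 change was 0.35 (SE 0.11, adjusted p = 0.0158), a rise that was lost without KO replicate 1 (adjusted p = 0.0583) or WT replicate 1 (0.0698), in a range of 0.00198 to 0.0698.

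Ndufaf2, a late-acting factor related to Ndufa12 that joins before the N module is complete, was at 7.30, 9.80 and 6.60 CPM in KO against 12.8, 13.4 and 14.0 CPM in WT libraries. As with Ndufaf4, KO replicate 2 was the highest of the KO libraries but below every WT library. The gene fell by 0.76 on the log2 scale (SE 0.14, adjusted p = 8.02e-04). Ndufa12, the subunit related to it, was at -0.13 and was not called.

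Ndufaf5 and Ndufaf8 act together, Ndufaf5 as an enzyme that hydroxylates an arginine of Ndufs7 and Ndufaf8 as its stabilising partner. Ndufaf8 was at 5.58, 4.69 and 4.90 CPM in KO against 7.44, 7.26 and 7.63 CPM in WT libraries, and fell by 0.56 (SE 0.12, adjusted p = 0.00216). Here KO replicate 2 was the lowest library. Ndufaf5 was at 21.1 ± 2.20 CPM in KO against 21.2 ± 1.18 CPM in WT libraries (SD, n = 3 each), with overlapping values and a log2 change of -0.01 (SE 0.09, adjusted p = 0.959) whose sign turned in 5 of 16 alternatives.

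Ndufaf1 belongs to the complex that builds the proximal membrane arm. It was at 19.5, 21.5 and 19.2 CPM in KO against 17.3, 16.1 and 15.1 CPM in WT libraries. It rose by 0.31 (SE 0.09, adjusted p = 0.00957), a call that was lost without WT replicate 3 (adjusted p = 0.0510, in a range of 0.00107 to 0.0510). Ndufaf6, which is needed for the part of the membrane arm around mt-Nd1, was at 4.12, 4.89 and 3.94 CPM in KO against 5.69, 5.37 and 5.34 CPM in WT libraries. Its values did not overlap, and its log2 change of -0.34 just missed the threshold (adjusted p = 0.0504, in a range of 0.0128 to 0.177). Ndufaf7, a methyltransferase of the assembly pathway, was at 27.0 ± 0.673 CPM in KO against 24.4 ± 0.916 CPM in WT (SD, n = 3 each), a log2 change of 0.15 that was not called (adjusted p = 0.0779).

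**Figure D3:**
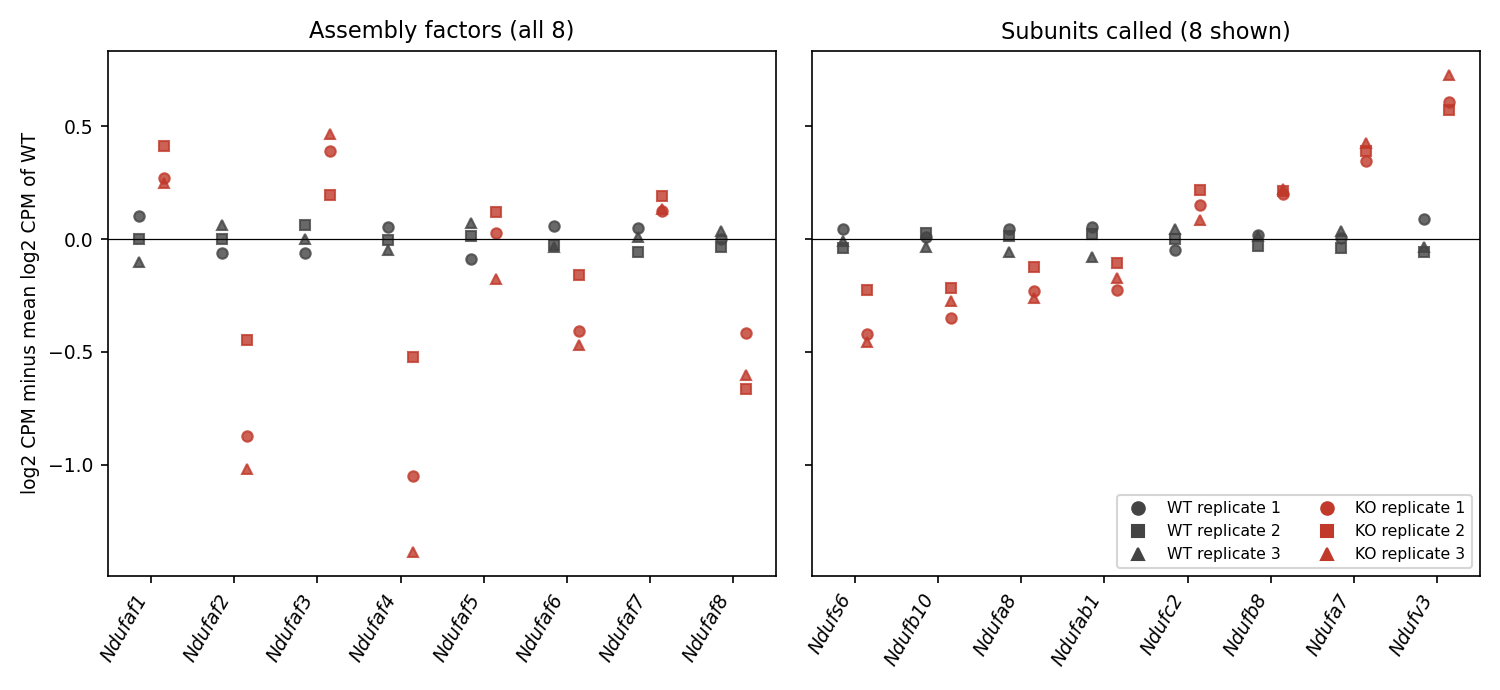
Log2 CPM of each library minus the mean log2 CPM of the WT libraries (vertical axis) for the 8 assembly factors and 8 of the 9 called subunits; KO libraries are red, WT libraries dark grey, and the symbol gives the replicate number. For Ndufaf2 and Ndufaf4, KO replicate 2 lies between the WT libraries and the other KO libraries.

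KO replicate 2 was the KO library nearest to the WT mean for 9 of the 14 called members, 3 of 5 assembly factors and 6 of 9 subunits. Over all genes it was also the KO library most like the WT libraries, with correlations of log CPM of 0.967 to 0.970 against 0.952 to 0.960 for the other KO libraries. The part of this library in the results was not tested beyond leaving it out, which gave 2 assembly factors higher and 4 lower, against 2 and 3 with all libraries.

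On the TMM scale, the summed level of the subunits was close in KO and WT libraries and that of the assembly factors was not. The 36 subunits together were at 2074 ± 17.6 CPM in KO against 2037 ± 26.7 CPM in WT libraries. The matrix arm summed to 1116 ± 10.3 CPM in KO against 1057 ± 19.1 CPM in WT libraries, and the membrane arm to 885 ± 7.53 and 899 ± 6.40 CPM. The ratio of the matrix to the membrane arm was 1.26, 1.25 and 1.27 in KO against 1.19, 1.16 and 1.18 in WT libraries, a shift without overlap. The assembly factors summed to 130, 151 and 119 CPM in KO against 171, 167 and 166 CPM in WT libraries. With Ndufaf4 left out, the other 7 assembly factors summed to 96.0 ± 4.88 CPM in KO against 96.3 ± 0.716 CPM in WT libraries (SD, n = 3 each for all of these sums). These sums depend on the scaling. As plain shares of the library totals, the subunits were at 2161 ± 42.3 counts per 1000000 in KO against 1952 ± 11.2 in WT libraries, higher without overlap. On that scale the assembly factors were at 139 ± 14.2 against 161 ± 0.803, and at 100.014 ± 3.24 against 92.3 ± 1.45 with Ndufaf4 left out (SD, n = 3 each).

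**Figure D4:**
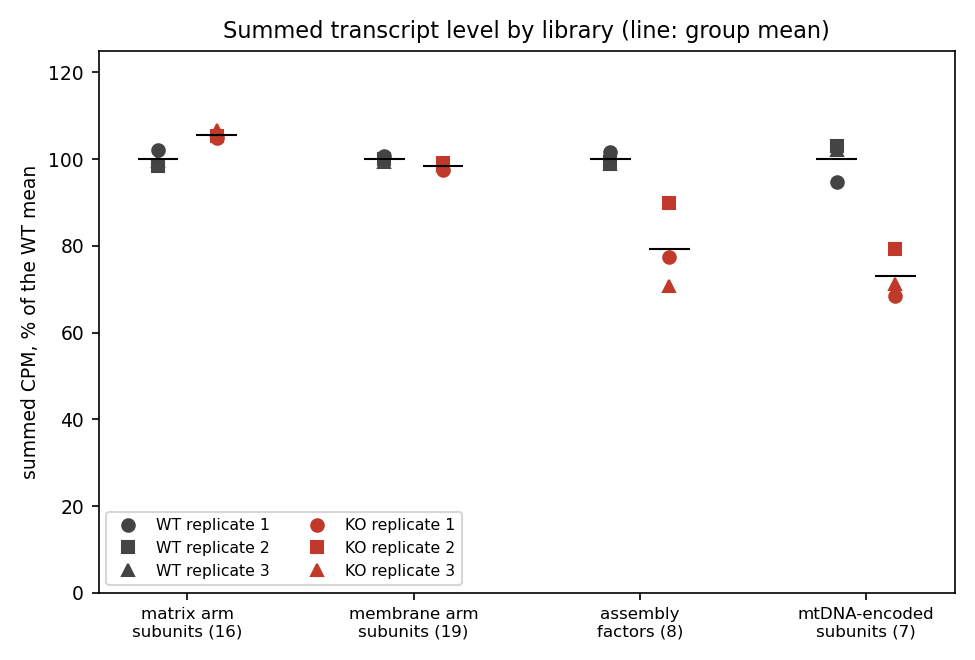
Summed CPM (TMM scale) of 4 groups of complex I genes in each library, as a percentage of the WT mean of that group (vertical axis from 0); KO libraries are red, WT libraries dark grey, the symbol gives the replicate number and the lines are group means. The nuclear subunits stay near 100%, the KO mean of the assembly factors is 79.4% and that of the subunits encoded by mitochondrial DNA 72.9%. Scaled by library totals (not drawn), the assembly factors are at 86.2% and the subunits encoded by mitochondrial DNA at 79.2%.

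The subunits of complex I that mitochondrial DNA encodes form the core of the membrane arm, and their transcripts were lower in KO cells. Of these 7 genes, 6 fell and 0 rose, where 27.8% of all genes tested fell, and the median log2 change was -0.48. The 7 lie on the same DNA molecule, so their calls may not be separate comparisons. Whether other genes of that DNA changed was not examined here. They summed to 8850, 10253 and 9198 CPM in KO against 12261, 13339 and 13197 CPM in WT libraries. Relative to the summed CPM of the nuclear subunits, they stood at 4.31, 4.93 and 4.41 in KO against 5.93, 6.60 and 6.53 in WT libraries, so that the ratio was lower in all KO libraries. Here too KO replicate 2 was the KO library nearest to WT. The falls were 0.48 for mt-Nd1, 0.45 for mt-Nd2, 0.35 for mt-Nd4, 0.45 for mt-Nd5 and 0.52 for mt-Nd6 on the log2 scale. Mean levels of those genes ran from 906 (mt-Nd6) to 4821 (mt-Nd1) CPM in WT libraries. By contrast, mt-Nd3 (14.7 CPM in KO against 25.5 CPM in WT libraries) and mt-Nd4l (5.02 against 8.12 CPM) were far lower in level. The gene without a call, mt-Nd4l, was at -0.69 (adjusted p = 0.0735, in a range of 0.00182 to 0.242). It was called lower by DESeq2 (adjusted p = 0.0155), by limma voom (0.0496) and with no filter on low counts (0.00182). For mt-Nd3 (-0.79), omitting KO replicate 1 (adjusted p = 0.0985), 2 (0.0816) or 3 (0.186) or the filter on low counts (0.182) ended the call, and the change moved to -0.52 without WT replicate 2, in a range of adjusted p from 4.39e-05 to 0.186.

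A second set of complex I assembly genes has no Nduf name. Of 15 such genes listed, 14 were matched in the table and tested (Coa1 was not matched), of which 4 rose and 3 fell, with a median of 0.09. The share called, 7 of 14 or 50%, was near the 55.7% of all genes tested. The largest change was that of Sfxn4, a sideroflexin of the inner membrane needed for complex I assembly. It stood at 5.98, 4.54 and 7.09 CPM in KO against 1.29, 0.679 and 1.39 CPM in WT libraries. The log2 change was 2.38 (SE 0.25, adjusted p = 2.46e-05), which is greater than that of any Nduf gene. Tmem126b was at 11.5, 10.5 and 12.6 CPM in KO against 6.44, 6.70 and 5.995 CPM in WT libraries, and rose by 0.86.

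Tmem126b works in 1 complex with Ndufaf1, Ecsit and Acad9 to build the proximal membrane arm, and the 4 did not move together. Tmem126b and Ndufaf1 rose, Ecsit fell by 0.30 (adjusted p = 0.0232) and Acad9 was at -0.02 (adjusted p = 0.823). The call of Ecsit was lost without KO replicate 1, KO replicate 3, WT replicate 1 or WT replicate 2, and under scaling by totals, in a range of adjusted p from 4.82e-05 to 0.117. Timmdc1, which acts on the same arm, fell by 0.35, as did Tmem70, which also serves ATP synthase. Aifm1, a flavoprotein of the inner membrane, rose by 0.17 and Tmem126a by 0.22. The call of Tmem126a was lost without any 1 of 5 libraries (all but KO replicate 3), with 0.14 on the log2 scale without KO replicate 2, and that of Aifm1 was lost without WT replicate 3.

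Of 40 nuclear genes tested from the other respiratory complexes, 14 were called (35.0%, against 55.7% of all genes tested), and the median of each complex was near zero. In complex II, 1 of 4 rose and 1 fell, with a median of -0.02. In complex III, 0 of 9 rose and 3 fell (median -0.05), among them Uqcrfs1, the Rieske iron-sulphur subunit, by 0.55 (adjusted p = 2.51e-05), a gene named after its value was seen. In complex IV, 0 of 12 tested rose and 4 fell (median -0.05). In ATP synthase, 3 of 15 rose and 2 fell, also with a median of -0.05. Ndufa4, counted with complex IV, was at 180, 176 and 172 CPM in KO against 161, 165 and 163 CPM in WT libraries, without overlap, and its log2 change of 0.11 was just short of a call (adjusted p = 0.0629). Its hypoxia-linked relative Ndufa4l2 had 7, 1 and 8 counts in KO against 4, 3 and 3 in WT libraries, too few to test.

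Of 8 transcription factors and coactivators known to act on genes of this kind, 1 rose and 5 fell, against 27.8% higher and 27.8% lower among all genes tested. Nrf1 fell by 0.32, Gabpb1 by 0.46, Esrra by 0.35, Ppargc1b by 0.36 and Tfam by 0.21 on the log2 scale, each called, whereas Gabpa and Yy1 were at 0.07 and -0.01 and were not. Ppargc1a had 24, 12 and 18 counts in KO libraries and 0, 0 and 1 in WT libraries. It was called higher, at a level that stayed under 1 CPM in every library.

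Many Nduf genes start head to head with another gene. For 21 members a protein-coding gene on the opposite strand had its 5′ end within 1000 bases, and in 19 of these pairs both genes were tested. Both genes were called in the same direction in 3 pairs and in opposite directions in 1. The member alone was called in 2 pairs, the neighbour alone in 8 and neither in 5. In all, 12 of 19 neighbours were called (63.2%), near the 55.7% of all genes tested.

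Some of the most changed members were in such pairs. Ndufaf2 starts 108 bases from Ercc8, a DNA repair gene, which fell by 1.12 on the log2 scale beside the fall of 0.76 in Ndufaf2. Ndufs6 starts 29 bases from Mrpl36, a mitochondrial ribosomal protein gene, which fell by 0.52 beside 0.36. Ndufv3 and Wdr4, a gene of transfer RNA methylation, start 135 bases apart and went in opposite directions, at 0.64 and -0.69. Ndufa7 rose by 0.39 while Rps28, 10 bases away, was at -0.06 and was not called. Likewise, Ndufaf8 fell by 0.56 while Tepsin, 197 bases away, was at -0.009 and was not called.

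**Figure D5:**
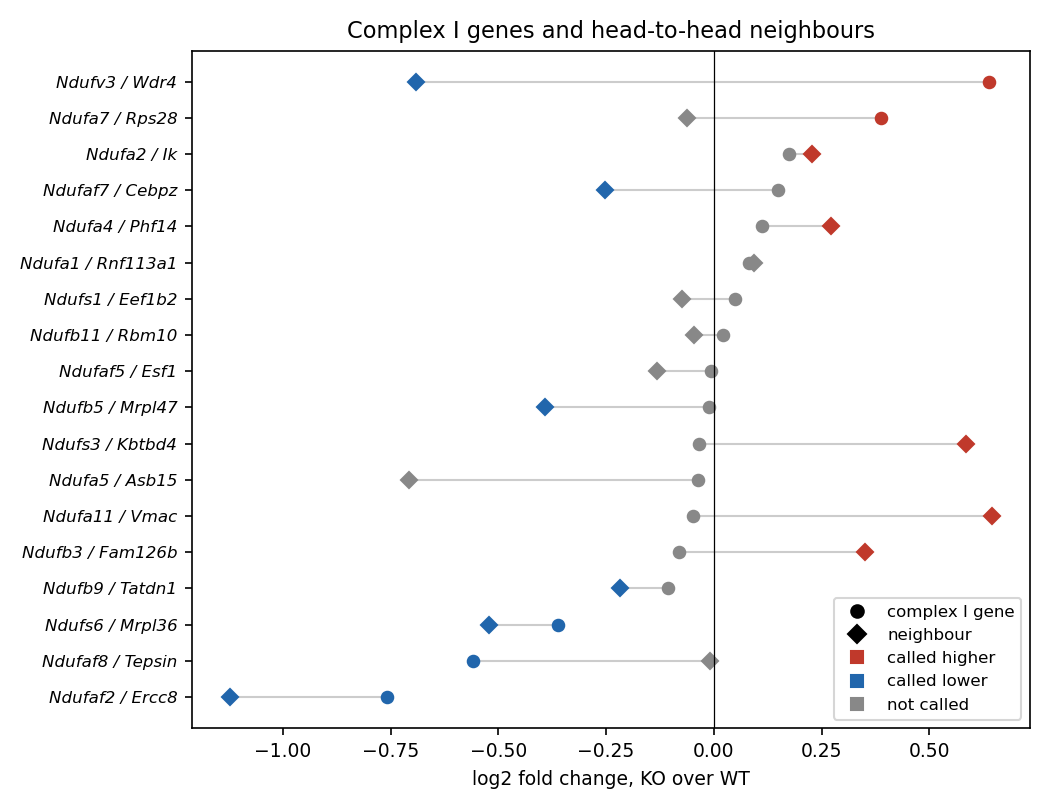
Log2 fold change of KO over WT (horizontal axis) for 18 of the 19 tested pairs of an Nduf gene (circles) and its head-to-head neighbour (diamonds), joined by a line, with colours as called. Ndufaf2 and Ndufs6 fell with their neighbours Ercc8 and Mrpl36, whereas Ndufv3 and Wdr4 at the top lie on opposite sides of zero.

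Overlap with other genes and near-identical copies bear on some of these values, because neither the labels nor the file state how strand and reads with several matches were handled. Exons of 19 members overlap an exon of another annotated gene. For Ndufaf2, 1955 of 2978 exon bases lie opposite the noncoding gene B230220B15Rik, which has no row in the table, so reads of that RNA could be counted as Ndufaf2. For Ndufaf3 the overlap with Impdh2, which had 40703 counts in all against 2099 for Ndufaf3, was 48 bases. Impdh2 fell by 0.35 on the log2 scale while Ndufaf3 rose.

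A copy in another gene with at least 95% identity over at least 50% of the coding sequence was found for 6 of 46 members. Ndufs5 was the extreme case. It had only 866 counts over the 6 libraries, whereas its processed pseudogene BC002163, 99.4% identical, had 3309. Ndufs5 was at 3.93 ± 0.123 CPM in KO against 3.81 ± 0.481 CPM in WT libraries, and the pseudogene at 14.8 ± 0.660 and 14.8 ± 1.41 CPM (SD, n = 3 each). Neither was called. Reads of either could have been counted at the other, so the low level of Ndufs5 is uncertain. For the same reason these rows are not separate comparisons. For the other 5 (Ndufa12, Ndufab1, Ndufb11, Ndufb4 and Ndufs3) the copies held at most 73 counts in all. Overlaps and copies of the mt-Nd genes were not searched for.

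RefSeq promoter sequences (GRCm38.p6, 250 bases before to 50 after the start) were matched for 40 of the 46 members. Motifs were searched on both strands. The NRF1 motif (GCGC, any base, then TGCGC) was in 7 of 32 subunit promoters (21.9%), against 4.78% of all promoters and 10.1% of those of tested genes. The YY1 motif AAGATGGCG was in 5 of 32 (15.6%), against 1.495% and 3.10%, and the CRE motif TGACGTCA in 3 of 32 (9.38%), against 1.88% and 3.28%. The ETS motif CCGGAAG was in 4 (12.5%, against 9.12% and 17.9%), the RBPJ motif GTGGGAA in 1 (against 6.39% and 6.18%) and the ERR motif TCAAGGTCA in 0 (against 0.407% and 0.241%). Among 7 assembly factor promoters, NRF1 and ETS motifs were each in 2, YY1 and RBPJ motifs each in 1, and CRE and ERR motifs in 0.

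The 250 bases before the start are shown for the 3 assembly factors that fell and for the most raised subunit, because these 4 had the largest changes among the Nduf genes. Capitals mark the motifs found, and all are written 5′ to 3′ on the strand of the gene. They are Ndufaf4 at chr4:24897833-24898082 (plus strand), Ndufaf2 at chr13:108158626-108158875 (minus), Ndufaf8 at chr11:120098684-120098933 (plus) and Ndufv3 at chr17:31519865-31520114 (plus).
Ndufaf4: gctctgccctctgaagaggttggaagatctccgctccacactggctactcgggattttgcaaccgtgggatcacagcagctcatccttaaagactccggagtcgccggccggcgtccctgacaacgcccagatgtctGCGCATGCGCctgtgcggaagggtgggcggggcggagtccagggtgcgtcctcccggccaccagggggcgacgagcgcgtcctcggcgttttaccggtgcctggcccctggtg
Ndufaf2: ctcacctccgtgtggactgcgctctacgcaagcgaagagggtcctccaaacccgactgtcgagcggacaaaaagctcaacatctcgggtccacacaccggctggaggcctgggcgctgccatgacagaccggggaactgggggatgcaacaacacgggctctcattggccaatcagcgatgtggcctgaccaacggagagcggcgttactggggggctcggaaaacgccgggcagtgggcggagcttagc
Ndufaf8: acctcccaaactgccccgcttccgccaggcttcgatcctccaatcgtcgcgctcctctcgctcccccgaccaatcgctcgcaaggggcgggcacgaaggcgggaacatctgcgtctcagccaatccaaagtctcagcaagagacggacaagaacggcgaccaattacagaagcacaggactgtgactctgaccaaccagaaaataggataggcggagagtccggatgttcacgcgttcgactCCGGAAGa
Ndufv3: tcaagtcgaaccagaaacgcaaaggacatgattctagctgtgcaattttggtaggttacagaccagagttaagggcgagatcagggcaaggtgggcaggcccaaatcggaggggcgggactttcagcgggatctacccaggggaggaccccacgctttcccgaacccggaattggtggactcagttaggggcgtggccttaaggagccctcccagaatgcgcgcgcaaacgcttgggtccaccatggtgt

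The Ndufaf4 sequence holds an NRF1 motif whose first base is 113 bases before the start, and the Ndufaf8 sequence an ETS motif that begins 8 bases before it. The sequences of Ndufaf2 and Ndufv3, which changed in opposite directions, hold none of the 6 motifs. Among the called subunits, Ndufa8 and Ndufs6, which both fell, have an NRF1 motif, but so do Ndufa5, Ndufa6, Ndufa11, Ndufb4 and Ndufs5, which were not called. A match describes letters in this window and not a bound site.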

How the data were processed

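Total RNA was taken with a Qiagen column kit and sequenced after NEBNext Ultra II library preparation, per the labels' protocols. The submitters' processing notes name bcl2fastq 2.17, Trimmomatic 0.36, STAR 2.5.2b, Subread 1.5.2, DESeq2 and the GRCm38 (mm10) build. The annotation release, strand setting and treatment of multiply matched reads are all not given in the sources used here. The authors deposited whole-number counts per gene for 3 KO and 3 WT libraries. Symbols came from GENCODE M21 (49056 of 49315 rows matched). The counts were filtered with filterByExpr (minimum count 10), scaled by TMM and tested with edgeR 4.0.16 (robust quasi-likelihood, R 4.3.3), KO against WT, with Benjamini-Hochberg adjustment over 16033 genes. The standard error was the log2 change divided by the square root of F. Alternatives were other scalings and filters, DESeq2 1.42.0, limma 3.58.1 (voom), non-robust dispersions, a replicate block, a threshold of 0.01 and leaving out each library. The procedure was also run on simulated counts with few changed genes, unlike these data, so that run does not bear on the choice of scaling.

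The members and gene lists were chosen with earlier results of these data known. Values are given for Chchd2, all assembly factors, all called subunits, Ndufa4, Ndufa4l2, the regulators and all called genes of the 2 lists without an Nduf name. No libraries were duplicates: within each group, counts differed beyond sampling noise. Of the members, 1 is not reported here by name or in the plots of single genes, and stays in the group counts, medians and sums.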

Additional observations from a re-analysis of the deposited data

How the results depend on the processing

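No Nduf gene that was called changed direction under any of the 16 alternatives, and 8 of the 14 called genes were called in every one. Of the 31 tested members that were not called, 16 were called under at least 1 alternative. With library totals, the subunits gave 14 higher and 2 lower and a median log2 change of 0.15, and the assembly factors a median of -0.0537. Upper quartile scaling gave 9 subunits higher and a median of 0.0841. At an adjusted p under 0.01, 1 assembly factor was higher. Leaving out each library in turn gave 4 to 7 subunits higher and 2 to 7 lower with medians from 0.0 to 0.0371, and 1 to 2 assembly factors higher and 3 to 4 lower with medians from -0.26 to -0.10. With no filter on low counts, 2 assembly factors were lower.

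Same-numbered KO and WT libraries did not deviate together (correlations of -0.06, 0.05 and 0.03), so the numbers were not taken as pairs. With the replicate number as a block, 4 subunits were higher and 4 lower, and 2 assembly factors were higher and 3 lower. The block also called mt-Nd4l lower (adjusted p = 0.00313). Depth limits Ndufa4l2 most, with 26 counts in all.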
